A study of Mus musculus with 24 samples.

Results

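The hydrolases of the intestinal brush border were followed in sorted secretory cells of the mouse small intestine (SI) and colon. The group holds 10 genes, listed by name and found among the 45513 genes of each count file through their Ensembl identifiers. They are 2 alkaline phosphatases (Akp3 and Alpi), 4 disaccharidases (Sis, Lct, Treh and Mgam) and 4 peptidases (Anpep, Dpp4, Mme and Enpep). All 10 were found.

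The data were 24 libraries of bulk RNA in 4 groups of 6. All mice were homozygous for a knock-in that places the tamoxifen-inducible recombinase CreERT2 downstream of Atoh1 at its own locus, and carried a tdTomato (tdTom) reporter at Rosa26 (R26RtdTom). Mice called WT, Atoh1(WT)CreERT2, kept the normal ATOH1 sequence, while in mice called 9S/T-A, Atoh1(9S/T-A)CreERT2, the 9 serine or threonine residues that precede a proline were replaced by alanine. Adult mice of both sexes received 1 injection of 3 mg tamoxifen, and live EpCAM+tdTom+ cells were sorted the next day from SI, of which the methods name the proximal part, and from colon. The methods state that the villus-enriched fraction was discarded before the sort. ATOH1 is the transcription factor that specifies secretory cells, so the reporter marks cells that had Atoh1 active when tamoxifen was given, and not the absorptive cells in which these hydrolases are best known. In each group the libraries are numbered 2 to 7 and the same number has the same sex. The submitters' text mentions 6 mice, the labels do not say which libraries share a mouse, and the p-values measure only the spread between these libraries.

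The brush border is the carpet of microvilli on the luminal face of absorptive enterocytes. Its hydrolases are membrane-anchored ectoenzymes that complete the digestion of sugars and peptides at the cell surface, next to the transporters that take up the products. Their genes are switched on as enterocytes leave the crypt, and CDX, HNF1, HNF4 and GATA factors are known to act on several of their promoters. Intestinal alkaline phosphatases remove phosphate from dietary substrates and from bacterial lipopolysaccharide.

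Akp3 and Alpi are neighbours on chromosome 1. In the build of the files, GRCm38, Akp3 (ENSMUSG00000036500) spans 87124973 to 87127912 on the plus strand and Alpi (ENSMUSG00000079440) spans 87098002 to 87101606 on the minus strand, 23367 bases apart. Lct lies on the same chromosome (128284756 to 128328318, minus strand). Sis (72888557 to 72967863, minus strand), Mme (63241537 to 63386030, plus strand) and Enpep (129269175 to 129332720, minus strand) are on chromosome 3. Mgam is on chromosome 6 (40628831 to 40769123, plus strand), Treh on chromosome 9 (44673233 to 44686305, plus strand), Anpep on chromosome 7 (79821803 to 79848210, minus strand) and Dpp4 on chromosome 2 (62330073 to 62412231, minus strand). Counts were summed over the exons of each gene. The proximal promoters of these genes and of 4 others are shown because the members differed so widely in level between the tissues. Akp3 and Alpi are the phosphatase pair, and Lct had the largest fall from SI to colon in WT. Sis is its fellow disaccharidase with a steep fall, and Mgam and Dpp4 were the members with the smallest. The disaccharidase Treh, not shown, fell further than Sis (log2 fold changes -7.98 and -7.45). Each is the 250 bases before the RefSeq start site (GRCm38.p6), 5′ to 3′ on the gene's own strand.
Akp3, chr1:87124704-87124953, plus strand: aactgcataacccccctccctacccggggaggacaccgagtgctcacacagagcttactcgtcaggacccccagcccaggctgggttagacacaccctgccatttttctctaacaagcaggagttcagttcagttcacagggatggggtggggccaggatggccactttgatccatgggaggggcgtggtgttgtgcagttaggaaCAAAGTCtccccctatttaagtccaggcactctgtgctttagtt
Alpi, chr1:87101607-87101856, minus strand: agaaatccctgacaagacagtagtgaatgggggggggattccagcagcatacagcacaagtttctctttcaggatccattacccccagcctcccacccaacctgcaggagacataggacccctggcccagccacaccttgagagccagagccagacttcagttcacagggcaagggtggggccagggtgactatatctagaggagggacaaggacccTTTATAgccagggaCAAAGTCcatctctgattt
Sis, chr3:72967864-72968113, minus strand: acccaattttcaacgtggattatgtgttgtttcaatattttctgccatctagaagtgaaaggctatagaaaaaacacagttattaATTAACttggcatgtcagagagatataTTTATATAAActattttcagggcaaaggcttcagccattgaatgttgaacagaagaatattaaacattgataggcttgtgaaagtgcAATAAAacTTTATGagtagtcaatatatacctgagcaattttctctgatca
Lct, chr1:128328319-128328568, minus strand: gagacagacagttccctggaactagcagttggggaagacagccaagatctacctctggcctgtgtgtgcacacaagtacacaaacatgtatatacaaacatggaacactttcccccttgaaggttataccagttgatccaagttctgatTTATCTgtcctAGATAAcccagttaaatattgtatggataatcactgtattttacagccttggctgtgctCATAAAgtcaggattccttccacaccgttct
Mgam, chr6:40628581-40628830, plus strand: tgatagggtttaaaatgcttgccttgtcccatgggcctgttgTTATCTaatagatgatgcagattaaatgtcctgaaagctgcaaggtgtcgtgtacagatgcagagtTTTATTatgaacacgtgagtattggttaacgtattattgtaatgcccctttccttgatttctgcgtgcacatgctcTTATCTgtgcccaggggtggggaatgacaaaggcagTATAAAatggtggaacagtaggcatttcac
Dpp4, chr2:62412232-62412481, minus strand: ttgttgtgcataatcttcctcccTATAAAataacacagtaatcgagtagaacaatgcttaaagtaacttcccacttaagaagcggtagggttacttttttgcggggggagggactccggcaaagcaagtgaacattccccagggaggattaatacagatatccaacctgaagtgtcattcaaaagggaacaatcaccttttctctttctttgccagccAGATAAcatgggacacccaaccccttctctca
Capitals mark matches on either strand to 6 short motifs, with positions counted back from the start site. The CDX motifs were TTTATG and TTTATT, the HNF1 motif was GTTAAT, the HNF4 motif was CAAAGTC, the GATA motif was AGATAA and the TATA box was TATAAA. In Sis, the TATA box letters on both strands overlap in 1 run. The HNF4 letters were found at -44 in Akp3 and -19 in Alpi, and also in Treh, against 3.84% of the 32851 mouse promoter windows of this length. The HNF1 letters were found only in Sis among the members (6.43% of windows). The TTTATG letters occurred in Sis at -43 and in Lct at -31 (10.8% of windows), and TTTATT in Sis and Mgam (18.1% of windows). The GATA letters occurred in Lct, at -101 and -90, in Mgam and in Dpp4 (9.99% of windows), and the TATA box letters in Alpi, Sis, Mgam, Dpp4 and Enpep (12.4% of windows). A match to such letters describes the sequence and does not show binding.

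Library totals ran from 36.0 M to 65.8 M counts. The sorted cells carried their defining RNAs in every library: Muc2, the main goblet cell mucin, had a mean of 27640 CPM (read counts scaled to a common library total) in WT SI and 12170 CPM in WT colon, and Atoh1 had 92.3 CPM in WT SI and 103 CPM in WT colon. The scaling between libraries was by the TMM method of edgeR. The 10 hydrolases together took between 0.073% and 0.294% of the counts in SI libraries and between 0.026% and 0.032% in colon libraries. Markers of other cells were present. The summed level of 12 enterocyte markers, such as Apoa1 and Fabp1, ranged from 2520 to 6470 CPM in WT SI, from 4120 to 7980 CPM in 9S/T-A SI, from 189 to 282 CPM in WT colon and from 200 to 266 CPM in 9S/T-A colon. Of these markers none was at 0 in any group. Summed leukocyte markers (12 genes) ranged from 14.5 to 38.9 CPM in SI and from 4.18 to 7.83 CPM in colon, and stromal and vessel markers (10 genes) stayed between 1.94 and 3.07 CPM. Since these are bulk libraries, a lower level of a gene can mean fewer cells that express it or less RNA per cell, which cannot be told apart.

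Levels between genes were compared per exon length, as TPM (length-adjusted counts scaled to a common total), within each group. In WT SI the peptidase Anpep was the highest at 120.0 ± 47.3 TPM (SD, n = 6), above Mgam in 6 of 6 libraries. Mgam (59.8 ± 17.8 TPM), Sis (55.2 ± 33.4 TPM) and Alpi (49.8 ± 16.4 TPM) followed and could not be ordered, since Mgam exceeded Sis in 4 of 6 libraries and Sis exceeded Alpi in 2 of 6. Lct, Enpep, Treh and Dpp4 lay between 28.5 and 10.9 TPM, with at least 5 of 6 libraries in that order at each step. Akp3 (6.88 ± 2.23 TPM) and Mme (5.81 ± 3.03 TPM) were the lowest and did not separate (4 of 6 libraries). In 9S/T-A SI, Anpep again led at 129 ± 70.8 TPM and Alpi stood next at 77.6 ± 33.5 TPM, above Sis in 6 of 6 libraries. Akp3 stood sixth of the 10 there, at 25.8 ± 16.9 TPM, next to Treh at 25.5 ± 10.2 TPM, which it exceeded in 4 of 6 libraries. The order in colon was another one. Mgam led in both genotypes (53.4 ± 6.5 TPM in WT and 56.6 ± 5.57 TPM in 9S/T-A), followed by Dpp4 (21.0 ± 1.36 and 19.5 ± 2.54 TPM) and Anpep (19.9 ± 3.56 and 17.7 ± 3.21 TPM). Dpp4 exceeded Anpep in 5 of 6 WT and 4 of 6 9S/T-A libraries, so they did not separate in 9S/T-A. Every other member had a mean below 2 TPM in colon, and Akp3 closed the order in both genotypes. Lct stood next to last. Treh exceeded Lct in 6 of 6 9S/T-A but only 4 of 6 WT libraries, so they did not separate in WT.

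**Figure D1:**
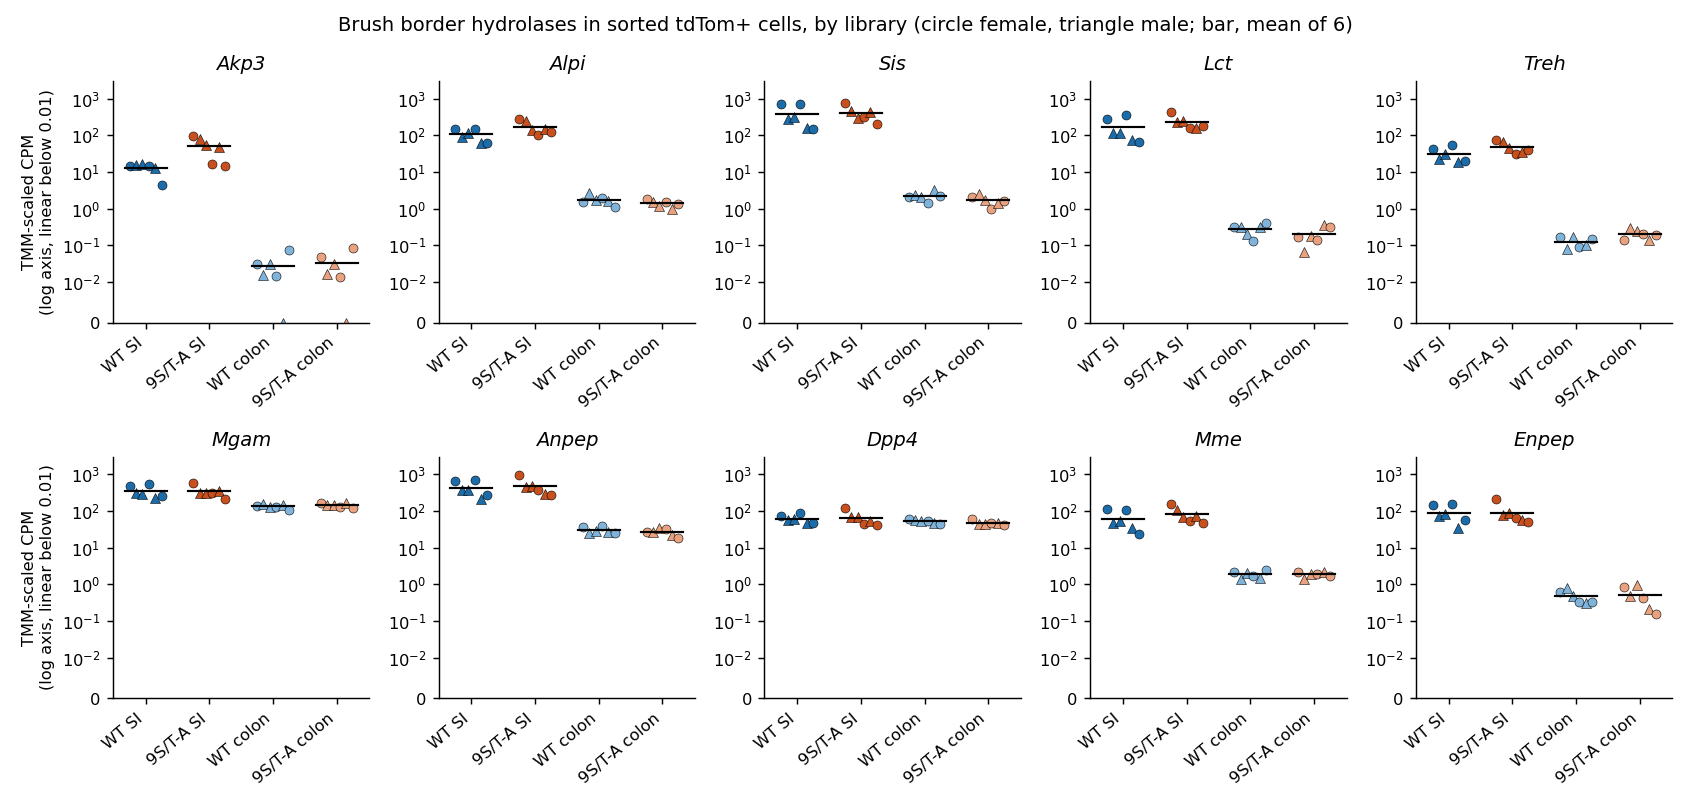
TMM-scaled CPM of the 10 hydrolases (y, log axis that is linear below 0.01) in each of the 24 libraries, in 4 groups (x), with circles for female and triangles for male mice and a bar at the mean of 6 libraries. Dpp4 sits at similar heights in SI and colon, and Mgam is lower in colon but above 108 CPM in every library, while Akp3, Lct and Treh fall below 0.5 CPM in every colon library.

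The comparison of tissues asks which hydrolases the Atoh1-marked cells of SI and colon share. In WT mice 9 of the 10 members were lower in colon and 0 were higher. Of the 16979 genes tested, 30.4% were lower in colon, and 5625 genes were higher. The median log2 fold change of the members was -6.70, beside 0.03 over all genes tested. The exception was Dpp4. The same 9 members were lower in colon of 9S/T-A mice, where 28.0% of 16938 genes were called lower, and the median log2 fold change was -7.22. In each genotype the libraries of those 9 members did not overlap between tissues, as for 43.5% of genes in WT and 41.1% in 9S/T-A. These fits did not pair the tissues. With the replicate number as a block, Dpp4 was called too, and 10 of 10 members were lower in each genotype. So were 5683 of 16979 genes in WT and 5492 of 16938 in 9S/T-A.

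Among the phosphatases, Alpi, an intestinal alkaline phosphatase widely used as an enterocyte marker, ranged from 60.9 to 152 CPM (median 103 CPM) in WT SI and from 1.14 to 2.60 CPM (median 1.66 CPM) in WT colon. Its log2 fold change was -5.95 (SE 0.29, adjusted p = 8.1e-11, edgeR quasi-likelihood test). Akp3, the mouse isozyme found mainly in duodenum, ranged from 4.41 to 16.5 CPM (median 14.5 CPM) in WT SI and was all but undetected in WT colon, with 0 to 5 counts per library. The log2 fold change of Akp3 was -8.80 (SE 0.44, adjusted p = 1e-10), a size that rests on those few colon counts. In 9S/T-A colon Akp3 again had only 0 to 6 counts in a library.

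The disaccharidases split. Lct, the lactase that digests milk sugar, ranged from 65.3 to 364 CPM (median 116 CPM) in WT SI and from 0.13 to 0.41 CPM in WT colon, a log2 fold change of -9.26 with an SE of 0.55 (adjusted p = 9.56e-10). Treh, which cleaves trehalose, fell by 7.98 on the log2 scale (SE 0.35, adjusted p = 2.51e-11), from a median of 26.7 CPM to 0.12 CPM. Sis, the sucrase-isomaltase that cleaves sucrose and branched starch fragments, ranged from 146 to 708 CPM (median 289 CPM) in WT SI and from 1.40 to 3.16 CPM in WT colon, a log2 fold change of -7.45 with an SE of 0.47 (adjusted p = 1.97e-09). Mgam encodes maltase-glucoamylase, an enzyme related to sucrase-isomaltase. Mgam had the smallest of the called differences and ranged from 231 to 542 CPM (median 295 CPM) in WT SI and from 108 to 159 CPM (median 135 CPM) in WT colon, 2.66-fold lower (log2 fold change -1.41, SE 0.20, adjusted p = 1.25e-05).

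The peptidases spread as widely. Enpep, the glutamyl aminopeptidase that removes acidic residues, fell by 7.60 on the log2 scale (SE 0.42, adjusted p = 3.68e-10), from a median of 76.8 CPM to 0.41 CPM. Mme, or neprilysin, a metalloendopeptidase that cuts small peptide hormones, fell by 5.09 on the log2 scale (SE 0.38, adjusted p = 1.18e-08), from a median of 49.3 CPM to 1.84 CPM. Anpep, aminopeptidase N, which trims neutral residues from peptides, ranged from 205 to 692 CPM (median 366 CPM) in WT SI and from 24.9 to 39.0 CPM (median 27.8 CPM) in WT colon. Anpep was thus 14.4-fold lower in colon (SE of log2 0.28, adjusted p = 9.75e-09).

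Dpp4, the peptidase that cuts after a proline or alanine in second position and inactivates incretin hormones, ranged from 46.3 to 85.2 CPM (median 58.1 CPM) in WT SI and from 44.9 to 59.2 CPM (median 52.9 CPM) in WT colon. The tissues overlapped, with a log2 fold change of -0.29 with an SE of 0.13 (adjusted p = 0.0727). In 9S/T-A mice Dpp4 ranged from 42.4 to 121 CPM in SI and from 41.7 to 59.1 CPM in colon, with a log2 fold change of -0.49 with an SE of 0.21 (adjusted p = 0.0516). Same-numbered SI and colon libraries deviated together, and with the replicate number as a block Dpp4 was called lower in colon in both genotypes (log2 fold change -0.26, adjusted p = 0.0146 in WT, and -0.41, adjusted p = 0.0141 in 9S/T-A). Scaled by plain library totals, which move the median of all genes to 0.74 in WT and 0.85 in 9S/T-A, the sign of the Dpp4 difference turned, to 0.43 (adjusted p = 0.00359) in WT and 0.29 (adjusted p = 0.255) in 9S/T-A, still below that median. The other 9 members kept their direction under that scaling, and Mgam had -0.68 in WT and -0.52 in 9S/T-A. Without WT SI replicate 6 or 7 Dpp4 was also called in WT (adjusted p = 0.0493 and 0.032). In 9S/T-A it was also called with RLE size factors (adjusted p = 0.0369), by DESeq2 (adjusted p = 0.0216) and with all 24 libraries in 1 fit (adjusted p = 0.0337). There it was called without SI replicate 5, 6 or 7 (adjusted p = 0.0269, 0.0435 and 0.019) or without colon replicate 2 (adjusted p = 0.0396), and without SI replicate 2 the value was -0.23 (adjusted p = 0.136).

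In 9S/T-A mice the other members gave a like picture, with no test of the difference beyond the interaction given last. Mgam ranged from 217 to 578 CPM in SI and from 117 to 166 CPM in colon (log2 fold change -1.30, SE 0.19, adjusted p = 2.17e-05). Anpep ranged from 277 to 951 CPM in SI and from 18.3 to 34.7 CPM in colon (-4.16, SE 0.30, adjusted p = 1.13e-08). Those were the 2 smallest of the called differences. Mme ranged from 45.6 to 152 CPM in SI and from 1.37 to 2.13 CPM in colon (-5.50, SE 0.29, adjusted p = 2.86e-10). Alpi ranged from 103 to 271 CPM in SI and from 0.99 to 1.84 CPM in colon (-6.95, SE 0.28, adjusted p = 1.83e-11). Enpep, Sis and Treh had log2 fold changes of -7.49, -7.93 and -7.95 (SE 0.49, 0.37 and 0.29), and none of their colon libraries was above 2.5 CPM. Lct ranged from 155 to 416 CPM in SI and from 0.07 to 0.35 CPM in colon (-10.12, SE 0.38, adjusted p = 6.74e-12). Akp3, at 0 to 6 counts in colon, had the largest value (-10.53, SE 0.68, adjusted p = 3.73e-09).

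Other genes of the brush border were read beside the members, each list by its counts. Of 13 tested among 15 other ectoenzymes, 11 were lower and 1 was higher in WT colon. Enpp7, the alkaline sphingomyelinase, and Tmprss15, the enteropeptidase that activates trypsinogen, had the largest differences (log2 fold changes -9.40 and -8.47, adjusted p = 1.38e-08 and 2.55e-09), both from under 0.02 CPM in colon. The gene that was higher was Mep1a, a meprin subunit, at 8.38 CPM in SI and 40.5 CPM in colon (adjusted p = 1.14e-06). It was named for being that single exception, after its value was seen. Of 15 genes for microvillus structure, 13 were lower in WT colon and 0 were higher, with a median log2 fold change of -1.30 against -6.70 for the hydrolases. Slc9a3r1, a scaffold of the microvillus membrane, and Pls1, an actin bundler, had the largest differences (-2.46 and -2.12, adjusted p = 4.75e-11 and 6.45e-10). By plain library totals 9 of the 15 were lower and 3 were higher, where 1903 of 16979 genes were lower and 12241 were higher. Of 12 transcription factors known to act on such genes, 8 were lower and 3 were higher in colon. By plain totals 5 were lower and 5 higher. The largest differences were those of Gata4, from 108 CPM to 0.33 CPM (log2 fold change -8.37, adjusted p = 1.88e-14), and Gata5, from 79.3 CPM to 1.04 CPM (-6.28, adjusted p = 9.19e-14).

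Markers of cell types moved with tissue too. All 12 enterocyte markers were lower in WT colon, with Apoa1 and Apoa4 furthest apart (log2 fold changes -9.67 and -9.67, adjusted p = 8.04e-13 and 1.01e-13). Of 10 colonocyte markers 7 were higher, as were 5625 of the 16979 genes tested. Mep1a, the ectoenzyme named above, is on this list too and is counted among them. Car1 had 0.711 CPM in SI and 299 CPM in colon (log2 fold change 8.67, adjusted p = 5.12e-12) and Slc37a2 had 0.455 and 23.3 CPM (5.62, adjusted p = 1.39e-09). The colonocyte marker that was lower, named after its value was seen, was Krt20, a keratin of the surface epithelium, at 1256 CPM in SI and 60.3 CPM in colon (-4.41, adjusted p = 1.86e-12). Of 9 goblet markers 6 were lower, with Zg16 and Tff3 furthest apart (-4.14 and -4.02, adjusted p = 6.37e-11 and 1.75e-11). By plain totals 6 were lower and 3 higher, where 1903 of 16979 genes were lower and 12241 were higher. All 8 Paneth cell markers were lower, with Defa17 and Defa24 furthest apart (-10.34 and -10.24, adjusted p = 3.72e-12 and 5.02e-12). Of 7 leukocyte markers tested 5 were lower, with Cd8a and Cd3g furthest apart (-6.16 and -5.78, adjusted p = 7.38e-11 and 1.78e-09). The part of these cells in the hydrolase differences was not tested.

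The comparison of genotypes asks whether loss of the phosphorylation sites in ATOH1 goes with another hydrolase level in the marked cells. In SI, 1 of the 10 members was called, Akp3, against 1.94% of the 16236 genes tested (315 genes). The median log2 fold change of the members was 0.28, with 8 of 10 above 0, beside 0 over all genes. At an unadjusted p under 0.05 stood Akp3, Alpi and Treh, as did 15.7% of all genes. For 0 of the 10 members did the libraries of the genotypes lie apart without overlap, as they did for 2.07% of genes.

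In the WT SI libraries numbered 2 to 7, Akp3 measured 14.8, 15.9, 16.5, 14.1, 12.7 and 4.41 CPM. In the 9S/T-A SI libraries with the same numbers it measured 92.5, 81.0, 54.6, 16.0, 46.7 and 14.5 CPM. The WT libraries lay close together apart from replicate 7, while the 9S/T-A libraries spread from the WT level to several times above it. Replicates 5 and 7 of 9S/T-A lay within the WT range, and the other 4 lay above the highest WT library. The means were 13.1 ± 4.44 CPM and 50.9 ± 32.3 CPM (SD, n = 6 each), a log2 fold change of 1.95 with an SE of 0.44 (edgeR adjusted p = 0.0338), or 3.86-fold.

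The call was close to its threshold. It was kept by DESeq2 (adjusted p = 0.00311). In edgeR it was kept with RLE size factors (adjusted p = 0.0321), plain library totals (0.0433) and no gene filter (0.0213). It was also kept with sex as a covariate (edgeR adjusted p = 0.0314) and with all 24 libraries in 1 fit (0.00172). It was lost when WT SI replicate 2, 3, 4, 5 or 6 was left out (adjusted p = 0.0523, 0.0686, 0.0622, 0.0655 and 0.0811) and when 9S/T-A SI replicate 3, 4 or 6 was left out (adjusted p = 0.0765, 0.0656 and 0.0578), while the log2 fold change of Akp3 stayed between 1.69 and 2.14 over all 12 such fits. Split by sex, male Akp3 levels ran from 12.7 to 16.5 CPM in WT and from 46.7 to 81.0 CPM in 9S/T-A, and female levels from 4.41 to 14.8 CPM and from 14.5 to 92.5 CPM. Fitted alone, the male libraries gave 1.997 (adjusted p = 0.00177) and the female libraries 1.89 (adjusted p = 1). Whether the sexes differ in this was not tested.

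Alpi, whose product is a close relative of that of Akp3, measured 152, 91.2, 115, 151, 62.0 and 60.9 CPM in WT SI libraries 2 to 7. The 9S/T-A libraries measured 271, 238, 138, 103, 144 and 121 CPM in the same order. The groups overlapped, and the log2 fold change of 0.68 did not pass the test (SE 0.28, edgeR adjusted p = 0.249). Because a read that fits both phosphatases was counted at 1 of them, the pair was also summed, and the sum gave 0.89 (adjusted p = 0.154). Within the pair, Akp3 made up 11.4% ± 4.02 of the counts of WT SI libraries and 21.3% ± 7.32 of those of 9S/T-A SI libraries (SD, n = 6 each). The share lay above the highest WT share in 4 of the 6 9S/T-A libraries. It was looked at after the values were seen and is given as a description.

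**Figure D2:**
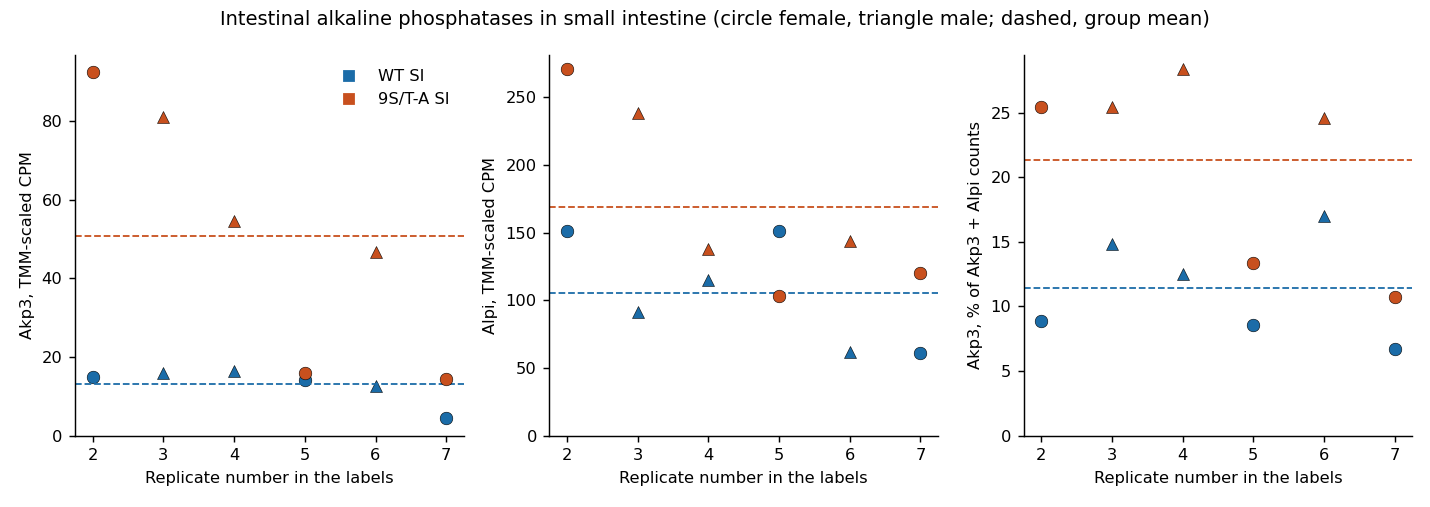
Akp3 and Alpi (y, TMM-scaled CPM) and Akp3 as a percentage of the summed counts of the pair (y, right) in each SI library, by replicate number (x), with WT in blue, 9S/T-A in orange, circles for female and triangles for male mice and dashed lines at the group means. Akp3 lies above every WT library in 4 of the 9S/T-A libraries and within the WT range in those numbered 5 and 7.

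None of the disaccharidases passed the test between genotypes in SI. Treh ranged from 18.8 to 53.6 CPM (median 26.7 CPM) in WT and from 29.9 to 75.5 CPM (median 42.5 CPM) in 9S/T-A, with a log2 fold change of 0.64 with an SE of 0.28 (adjusted p = 0.289). Lct had medians of 116 CPM and 202 CPM and a log2 fold change of 0.43 with an SE of 0.40 (adjusted p = 0.642). The male libraries alone gave 0.99 for Lct, past the threshold (adjusted p = 0.0491), and the female libraries alone gave 0.09 (adjusted p = 1), both fits added after the data were seen. Of all genes tested, 241 of 16322 were called in the male fit and 18 of 16428 in the female fit. Sis had medians of 289 and 366 CPM (log2 fold change 0.10, SE 0.41, adjusted p = 0.939), and Mgam of 295 and 310 CPM (-0.03, SE 0.24, adjusted p = 0.975).

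Nor did a peptidase pass in SI. Mme had medians of 49.3 and 70.7 CPM (log2 fold change 0.41, SE 0.37, adjusted p = 0.631). Anpep had medians of 366 and 413 CPM (0.15, SE 0.33, adjusted p = 0.87) and Dpp4 of 58.1 and 59.5 CPM (0.09, SE 0.23, adjusted p = 0.884). Enpep had means of 90.2 ± 47.8 and 90.0 ± 59.3 CPM (SD, n = 6 each). With standard errors from 0.23 to 0.44 on the log2 scale over the 10 members, differences of the size seen for Lct or Mme could not be told from the spread between libraries.

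**Figure D3:**
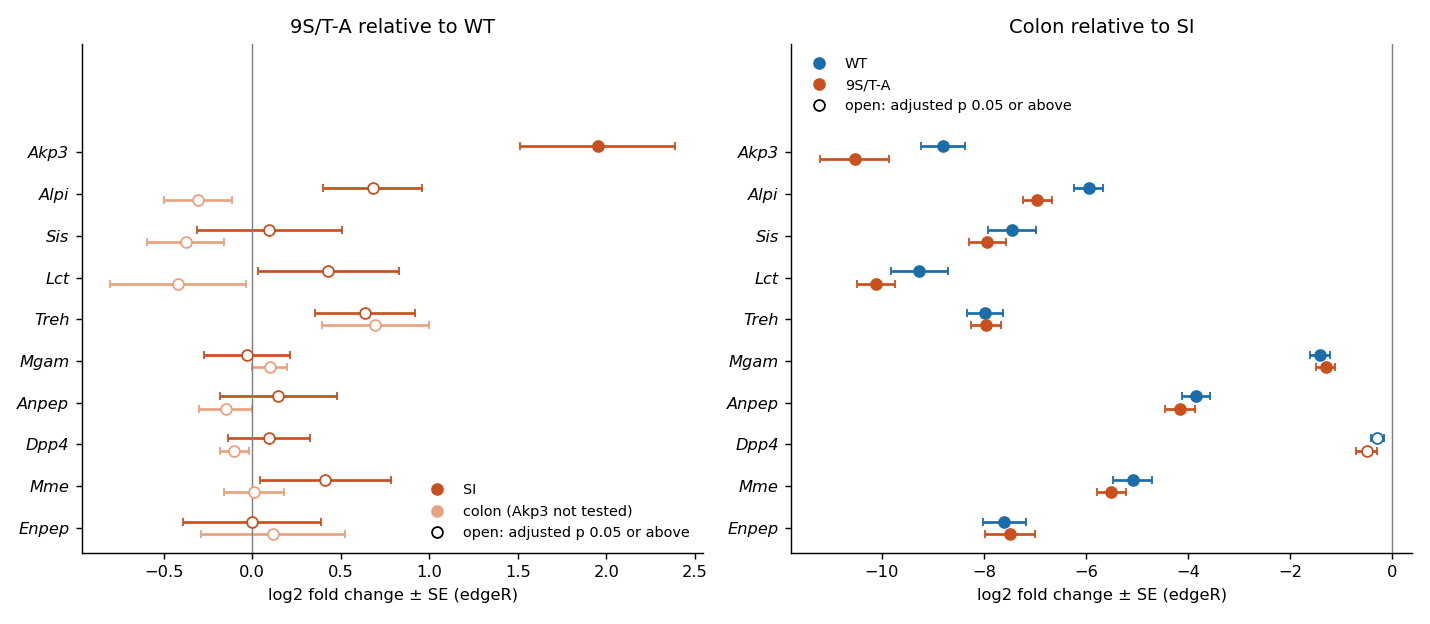
Log2 fold changes with their standard errors (x, edgeR) of the 10 hydrolases (y), 9S/T-A relative to WT in each tissue (left) and colon relative to SI in each genotype (right); filled points passed an adjusted p of 0.05. Akp3 in SI is the single filled point on the left, at 1.95, and Dpp4 has the 2 open points on the right.

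The spread within the SI groups was shared by the members. The 9S/T-A SI library numbered 2 was the highest of its group for 10 of 10 members, and the one numbered 7 was the lowest for 7. In WT SI, replicate 5 was the highest for 7 members and replicate 7 the lowest for 6. The highest library exceeded the lowest by between 1.84-fold (Dpp4) and 5.58-fold (Lct) in WT SI, and by between 2.52-fold (Treh) and 6.39-fold (Akp3) in 9S/T-A SI. Enterocyte markers followed the same libraries at the upper end. Their summed level was highest in WT SI replicate 5 (6466 CPM) and 9S/T-A SI replicate 2 (7975 CPM), the libraries where the summed hydrolases were highest too, at 2867 and 3638 CPM. It was lowest in replicate 7 of each genotype, at 2525 and 4123 CPM. The summed hydrolases were lowest in replicate 7 of 9S/T-A (1190 CPM) but in replicate 6 of WT (873.7 CPM, with 950.8 CPM in replicate 7). The part of absorptive cells in the sorted fraction, in the spread or in the genotype difference of Akp3, was not tested. Without the libraries numbered 2 of both genotypes Akp3 had a log2 fold change of 1.73 (adjusted p = 0.0542).

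**Figure D4:**
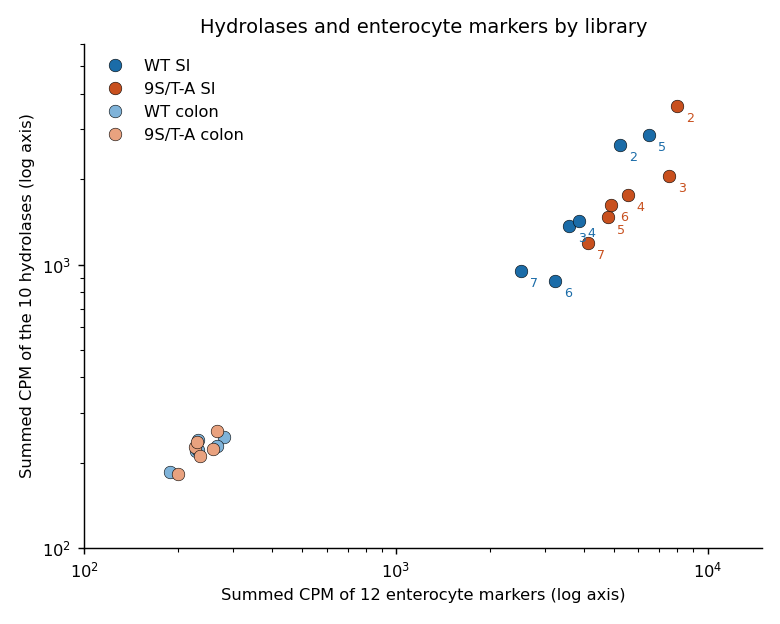
Summed CPM of the 10 hydrolases (y, log axis) against the summed CPM of 12 enterocyte markers (x, log axis) in each of the 24 libraries, with the SI points labelled by replicate number. The SI points run from 2525 to 7975 CPM of markers, with replicates 2 and 3 of 9S/T-A and replicate 5 of WT at the upper end, and the colon points cluster below 300 CPM on both axes.

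Across the 12 SI libraries of both genotypes, the genes whose log2 CPM were most like that of Akp3 by Pearson's r were Acot4 (0.94), an acyl-CoA thioesterase, Sgms2 (0.94), a sphingomyelin synthase, and the predicted gene Gm10145 (0.92). Those most like Sis were Slc5a1 (0.99), the sodium-glucose transporter of the brush border, Slc26a6 (0.97), an anion exchanger, and Gna11 (0.96), a G protein subunit. These values describe libraries that share the spread above and carry no test.

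Of the other lists in SI, other ectoenzymes had 1 gene higher and 1 lower in 9S/T-A of 13 tested. Xpnpep2, a membrane-bound aminopeptidase that acts on proline bonds, had means of 54.2 and 76.2 CPM (log2 fold change 0.49, SE 0.12, adjusted p = 0.0466). Plb1, the phospholipase of the brush border, had means of 1.77 and 0.678 CPM (-1.38, SE 0.30, adjusted p = 0.0303). Both calls were lost in 9 of the 12 fits that left out a library, and that of Xpnpep2 was lost by plain library totals. None of the 15 microvillus genes, the 12 transcription factors and the 12 enterocyte markers was called. Log2 fold changes were above 0 for 15, 7 and 12 of them in that order, as for 8124 of 16236 genes. By plain totals those counts were 10, 2 and 12. By DESeq2 3 of the enterocyte markers were called higher. The enterocyte markers had a median log2 fold change of 0.39, above the 0.28 of the hydrolases, and Apoa4 came nearest to a call (0.76, adjusted p = 0.0801). Of the 10 colonocyte markers Guca2a, the guanylin precursor, was higher without overlap, with means of 626 and 1084 CPM (0.79, SE 0.13, adjusted p = 0.00422). Its mean in WT colon was of the same order, at 804 CPM, so here Guca2a does not single out colonic cells. Of the 8 Paneth cell markers 4 were lower in 9S/T-A, namely Ang4 (-1.11, adjusted p = 0.00607), Mmp7 (-1.25, adjusted p = 0.0072), Itln1 (-0.98, adjusted p = 0.00958) and Pla2g2a (-0.61, adjusted p = 0.0333). The call of Pla2g2a was lost in 7 of the 12 fits that left out a library. Defa22, a Paneth cell defensin, went the other way with means of 1077 and 2013 CPM and was called higher by DESeq2 but not by edgeR (0.90, adjusted p = 0.122). It was named after its value was seen. By plain totals 5 Paneth cell markers were lower and with the replicate block 3, as were 190 and 248 of 16236 genes. None of the 9 goblet markers and of the 7 leukocyte markers tested was called by edgeR, while DESeq2 called 1 goblet marker higher and 1 leukocyte marker lower.

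In colon, 0 of the 9 members tested were called between genotypes, against 0.318% of the 16997 genes tested. DESeq2 also called 0, where it called 254 genes in all, but it gave no adjusted p for Treh in colon. Akp3 did not pass the filter on low counts there. At an unadjusted p under 0.05 stood 1 member, Treh, as did 8.81% of all genes. Treh ranged from 0.08 to 0.17 CPM (5 to 11 counts) in WT colon and from 0.14 to 0.29 CPM (10 to 18 counts) in 9S/T-A colon, with 4 of 6 9S/T-A libraries above the highest WT library (log2 fold change 0.70, SE 0.30, edgeR adjusted p = 0.528). The 3 members with the highest colon levels had small differences between genotypes. Mgam had means of 135 ± 18.2 and 143 ± 19.2 CPM (log2 fold change 0.10, SE 0.10), Dpp4 of 51.8 ± 5.37 and 47.7 ± 6.06 CPM (-0.10, SE 0.08) and Anpep of 30.1 ± 5.92 and 26.8 ± 6.10 CPM (-0.15, SE 0.15), each with an adjusted p of 0.883 or above. Alpi, Sis, Lct, Mme and Enpep had log2 fold changes from -0.42 (Lct) to 0.12 (Enpep). Among the other lists, Cobl, an actin nucleator of the microvillus, was higher in 9S/T-A colon, with means of 41.5 and 58.1 CPM (0.50, SE 0.09, adjusted p = 0.0218). It was 1 of 15 in its list, was not called by plain library totals and lost its call in 2 of 12 fits without 1 library. Spink4, a goblet cell peptide, rose from 1557 to 2468 CPM (0.69, SE 0.12, adjusted p = 0.0287), 1 of 9 goblet markers (2 by DESeq2), a call lost in 6 of 12 such fits.

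The difference of the genotype effects between colon and SI was tested as an interaction. None of the 10 members was called, by edgeR or by DESeq2, against 0.412% of 17953 genes. At an unadjusted p under 0.05 stood 1 member, Alpi, as did 9.69% of all genes. The genotype difference of Alpi was lower in colon than in SI by a log2 interaction of -1.01 (SE 0.38, edgeR adjusted p = 0.315). With the replicate number within genotype as a block, the Alpi interaction was -1.005 (SE 0.255, edgeR adjusted p = 0.055). It was still not called, where 342 of 17953 genes were. For Akp3 the interaction was -1.74 (SE 1.53, adjusted p = 0.83), with 0 to 6 counts of Akp3 in any colon library. The genotype difference of Akp3 in SI was thus not shown to differ from that in colon.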

How the data were processed

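Bulk RNA was measured in 24 libraries of sorted EpCAM+tdTom+ cells. Per the labels and file headers, the authors aligned stranded reads to GRCm38 with TopHat2 (2.1.1) and counted primary alignments over exons by gene with featureCounts (Subread 1.5.2). The deposited values are raw read counts per gene, without normalization. A read with several positions was counted at 1 of them, so paralogs such as Akp3 and Alpi are uncertain. The 10 genes and all lists were chosen with earlier results of these data known.

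Symbols were matched for 97.96% of 45513 genes. Genes were filtered by filterByExpr and tested with edgeR's quasi-likelihood test (4.0.16, R 4.3.3; TMM scaling, 6 libraries per group, all 4 groups for the interaction), and p-values were adjusted over all genes tested by Benjamini-Hochberg and called under 0.05. CPM levels were scaled by TMM over all 24 libraries. TPM used the exon lengths in the files. No libraries of a group (60 pairs) were identical. The scripts were tested on simulated data. DESeq2 (1.42.0) was an alternative.

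Replicate numbers come from the sample titles. Deviations from the group mean correlated between same-numbered SI and colon libraries in 6 of 6 pairs in each genotype. The values ran from 0.17 to 0.57 in WT and from 0.16 to 0.65 in 9S/T-A. The main fits nevertheless used no pairing, and a fit with the replicate number as a block was run as an alternative. Between genotypes, mice of the same number are different animals.

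Named genes were the 10 members, from each list those called between genotypes (at most 4 per list) and the 2 largest differences between tissues in WT, the 3 genes most like Akp3 and Sis, and Atoh1 and Muc2.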

Additional observations from a re-analysis of the deposited data

Results flagged for a closer look

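In 6 of the 40 sets of 6 libraries (10 members in 4 groups), 1 library lay further from its nearest neighbour than Dixon's 95% limit allows, where chance gives about 1 set in 20. In 4 of these it was the 9S/T-A SI library numbered 2, which lay above the other libraries of its group for Lct (416.2 CPM), Anpep (950.6 CPM), Dpp4 (120.5 CPM) and Enpep (207.7 CPM). The 9S/T-A colon library of the same number was the outlying one for Dpp4 (59.13 CPM). The WT SI library numbered 7 lay below its group for Akp3 (4.408 CPM). The same libraries were at the upper and lower ends for the summed enterocyte markers in SI, 7975 CPM in 9S/T-A replicate 2 and 2525 CPM in WT replicate 7. Members measured in 1 library share its cells, so these sets are not independent.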

How the results depend on the processing

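The fall of 9 members from SI to colon kept its direction and its call in both genotypes under every alternative run (RLE size factors, plain library totals, DESeq2, no gene filter, the replicate block, all 24 libraries in 1 fit, and 12 fits per genotype without 1 library). By plain totals Dpp4 turned to 0.433 in WT and 0.286 in 9S/T-A. TPM, which carry no TMM scaling, were close between tissues for Mgam. Its means were 59.8 in SI and 53.4 in colon of WT, and 56.5 and 56.6 in 9S/T-A. Dpp4 had 10.9 TPM in SI and 21.0 TPM in colon of WT, and 11.1 and 19.5 TPM in 9S/T-A. The tissue difference of these 2 members thus depends on the scale used.

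Between genotypes in SI, the number of members called was 1, was 0 with Akp3 and Alpi summed, 0 without number 2 of both genotypes, 0 in female libraries and 2 in male libraries, and lay between 0 and 1 when 1 library was left out. The 315 genes called in all became 779 by DESeq2, 520 with all 24 libraries in 1 fit and 779 without number 2 of both genotypes. In female libraries 18 of 16428 genes were called and in male libraries 241 of 16322. Without 1 library the number ran from 188 to 550. By plain totals 29.1% of the genes called were higher in 9S/T-A, beside 53.3% by TMM, and in the tissue comparisons 86.5% (WT) and 88.4% (9S/T-A) of called genes were higher in colon, beside 52.1% and 54%. The 54 genes called in colon became 254 by DESeq2, 90 with no gene filter, 89 with sex as a covariate and 103 with all 24 libraries in 1 fit, and ran from 30 to 72 without 1 library. The 74 interaction calls became 257 by DESeq2. The causes were not tested.

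Same-numbered libraries of the 2 genotypes deviated together unevenly, with 4 of 6 pairs over 0.1 in SI and 5 of 6 in colon. Of 6 WT libraries, 2 in SI and 4 in colon were closest to their own number. The numbers also share a sex, and no main fit took them as pairs. With the replicate block 477 genes were called in SI, 385 in colon and 342 for the interaction. Akp3 had 1.771 (adjusted p = 0.00706) with the block in SI, and 2476 genes were called with the block and without number 2. The block changed no member's call except that of Dpp4 between tissues.

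Signs of small, uncalled differences turned. In SI, Enpep moved from -0.002 to 0.00019 (RLE), 0.001 (DESeq2), 0.0021 (no filter), 0.0016 (block), 0.04 (sex as a covariate) and 0.212 (male libraries), and Mgam to 0.0037 (sex as a covariate) and 0.219 (male libraries). Sis moved to -0.264 in female libraries. Without number 2 of both genotypes Anpep had -0.029 and Dpp4 -0.107, or -0.095 with the block. In colon Mme moved to -0.034 (plain totals) and -0.0043 (all 24 libraries). Without 1 library the SI values ran from -0.19 to 0.362 for Sis, -0.238 to 0.134 for Mgam, -0.185 to 0.339 for Anpep, -0.167 to 0.204 for Dpp4 and -0.44 to 0.208 for Enpep. In colon they ran from -0.068 to 0.127 for Mme and -0.145 to 0.302 for Enpep. At 0 to 6 counts per colon library Akp3 could not be compared between genotypes there.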
